A study of Homo sapiens with 2 samples.

Results

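ADAM and ADAMTS genes were taken as every gene whose name on the array starts with ADAM followed by a digit or with ADAMTS, which gave 45 genes (21 ADAM and 24 ADAMTS or ADAMTS-like) of 30482 gene names, measured by 80 probes. The RNA was that of SAS cells, a line from a human squamous cell carcinoma of the tongue, and of eSAS cells, which remained after 5 rounds of enriching SAS cells for large spheroids on a removable filter. Both were grown in DMEM with fetal bovine serum, were harvested in log growth phase, and the labels name no transgene or drug for either. The methods also describe plating of single cells to set up lines, and whether the eSAS RNA came from a clone is not given in the sources used here. One-colour microarrays measured 1 sample of each, so there was no replicate, no test between the populations and no p-value, and precision is limited by having a single array of each. In what follows a gene is called higher or lower when its signal differed at least 2-fold in eSAS cells against SAS cells. Signals are the background-corrected intensities of the scanner software, printed unscaled with SAS before eSAS, and ratios are eSAS over SAS on the log2 scale after each array was scaled to its 75th percentile. A gene was detected when a probe of it carried the software's mark for a signal well above background, and the software's error is the one it gives for each signal, carried to the ratio. In such bulk RNA, fewer cells expressing a gene and less of its RNA per cell cannot be told apart.

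ADAM proteases sit in the plasma membrane, and those with an intact zinc-binding site cut the outer parts of other membrane proteins, such as growth factor precursors, Notch receptors and adhesion molecules, a step called shedding. ADAMTS proteases are secreted relatives that carry thrombospondin repeats and cut proteoglycans, procollagens and other matrix proteins, and ADAMTS-like proteins share those repeats but have no protease domain. In squamous carcinomas ADAM10 and ADAM17 are best known for releasing ligands of the EGF receptor and for cutting E-cadherin and Notch.

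None of the 45 genes was called higher in eSAS cells, while 1.98% of the 20871 genes detected on the SAS array, the eSAS array or both were. ADAMTS19 and ADAMTS2 were called lower, 2 of 23 detected members, where 2.13% of all detected genes were called lower. The ADAM members held 0 such genes in either direction, and both lower genes were secreted ADAMTS proteases. At a 1.5-fold threshold the members' counts were still 0 higher and 2 lower, against 4.61% and 6.31% of all detected genes. The lower count was above its background share and the higher count below its own, but with 23 detected members a single gene is more than either 2-fold share.

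The processed signal of the ADAMTS19 probe was 82.8 in SAS cells and 3.67 in eSAS cells, where it was not well above background. ADAMTS19 encodes a secreted protease whose substrates are poorly known. The difference was at least 5.25-fold, because the lowest signal counted as above background on the eSAS array was used in place of the dim value. A single probe and a single spot per array stand behind this value, at chr5:129098620-129098680 of hg18 on the forward strand. Before correction, the spot's mean pixel intensity was 129 in SAS cells and 50.8 in eSAS cells, over a local background of 31.0 and 31.5. The spot's own pixels thus differed, while the surface around it read nearly the same. The 24 spots around it on the array had a median log2 ratio of 0.02. Among probes within 2-fold of its SAS signal, 5.22% were called lower. The call was lost without background correction, where the bound was a log2 ratio of -0.95, and normexp correction fitted on all spots gave no bound.

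ADAMTS2 removes the amino-terminal propeptide of fibrillar procollagens. Its brightest probe, at chr5:178513108-178513167 of hg18 on the reverse strand, read 59.5 in SAS cells and 28.2 in eSAS cells, a log2 ratio of -1.03 or 2.04-fold lower. The software's error of that ratio was 0.28, so the value lies at the 2-fold threshold within its error. A further ADAMTS2 probe read 17.8 and 8.89, the latter not well above background, which bounds the difference at 1.13-fold lower. The remaining probe read 12.6 and 6.50 and was not well above background on either array. All 3 probes had the lower signal on the eSAS array, but only one of them measured the gene on both. Of probes within 2-fold of the brightest probe's SAS signal, 6.41% were called lower. The ADAMTS2 call was lost when the arrays were centred on their medians, at a log2 ratio of -0.99, and without background correction, at -0.42. With no filter on dim probes, where all 3 probes were averaged, the call was also lost, at a ratio of -0.96. It turned to 2.30 under normexp correction fitted on all spots, a setting that moved the median of all genes to 0.68.

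Both genes lie on chromosome 5, and neither stood within a block of lower genes. The 18 measured genes within 2 Mb of the ADAMTS19 probe had a median log2 ratio of 0.04 and ranged from -0.37 to 0.45. The 67 genes within 2 Mb of ADAMTS2 had a median of -0.0056. Chromosome 5 carried 6 member genes, ADAM19, ADAMTS2, ADAMTS6, ADAMTS12, ADAMTS16 and ADAMTS19, and all 6 were detected. These members did not share a direction, since the log2 ratios of ADAMTS6 and ADAMTS12 were 0.07 and 0.08.

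The promoters of the called genes and of ADAM17, the sheddase of TNF and of EGF receptor ligands, are shown because they are the members with the largest difference and the best measured member without one. Each is the 250 bases before the annotated start, from RefSeq on GRCh38.p14, with GC boxes (GGGCGG or its complement CCGCCC) in capitals. The ADAMTS19 promoter is chr5:129460048-129460297 on the forward strand, that of ADAMTS2 chr5:179345462-179345711 on the reverse strand, and that of ADAM17 chr2:9555831-9556080 on the reverse strand. These coordinates are of another build than those of the probes.
ADAMTS19: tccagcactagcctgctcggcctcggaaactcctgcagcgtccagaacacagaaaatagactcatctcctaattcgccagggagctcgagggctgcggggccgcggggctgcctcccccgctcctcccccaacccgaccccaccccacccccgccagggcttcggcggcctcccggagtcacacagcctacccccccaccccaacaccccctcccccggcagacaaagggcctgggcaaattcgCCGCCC
ADAMTS2: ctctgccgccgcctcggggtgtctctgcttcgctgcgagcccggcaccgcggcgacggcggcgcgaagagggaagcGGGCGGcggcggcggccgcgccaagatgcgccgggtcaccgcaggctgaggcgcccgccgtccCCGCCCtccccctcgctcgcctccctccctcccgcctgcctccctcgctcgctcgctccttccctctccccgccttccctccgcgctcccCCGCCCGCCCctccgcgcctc
ADAM17: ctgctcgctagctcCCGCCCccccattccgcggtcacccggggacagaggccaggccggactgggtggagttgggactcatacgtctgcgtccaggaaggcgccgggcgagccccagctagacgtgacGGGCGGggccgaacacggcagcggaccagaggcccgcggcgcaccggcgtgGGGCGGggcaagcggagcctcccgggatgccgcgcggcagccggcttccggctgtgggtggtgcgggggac

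The ADAMTS2 promoter had 4 GC boxes and 40 CpG dinucleotides, that of ADAM17 had 3 GC boxes and 31, and that of ADAMTS19 had 1 GC box and 17. None of these promoters held a TATA box (TATAAA) or an AP-1 element (TGANTCA), searched on both strands. Over the 30 members whose promoter was in the table, 22 held a GC box, 2 a TATA box and 1 an AP-1 element, while 14973, 3763 and 2308 of 35116 promoters of the same length did, which is 42.6% for the GC box and 6.57% for the AP-1 element. Their median GC content was 73.6%, against 58.0% over all promoters. GC boxes were counted also where they overlap one another, and a match describes the sequence only.

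Of the 45 genes, 23 (51.1%) were detected on either array, against 68.5% of all genes, and 19 were detected on both. Of the catalytically active ADAMs 8 of 12 were detected, and of the ADAMs that lack the zinc-binding site 3 of 8. Among the ADAMTS groups, 2 of 7 proteoglycan-cleaving members, 1 of 3 procollagen propeptidases, both COMP-cleaving members and the VWF-cleaving ADAMTS13 were detected, as were 3 of 6 other ADAMTS members and 2 of 5 ADAMTS-like members. Not well above background on either array were ADAM2, ADAM18, ADAM20, ADAM21, ADAM29, ADAM30 and ADAM32, which are mostly known from testis, and ADAM23, a neuronal protein. ADAM28, a lymphocyte protease, was also in this group, as were ADAMTS3, ADAMTS4, ADAMTS8, ADAMTS9, ADAMTS10, ADAMTS14, ADAMTS15, ADAMTS17, ADAMTS18 and ADAMTS20 and the matrix proteins ADAMTSL1, ADAMTSL2 and ADAMTSL3. For these 22 genes the arrays give only that the signal, at most 12.2 in SAS cells (ADAMTSL2) and 14 in eSAS cells (ADAMTS14), was too low to compare.

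**Figure D1:**
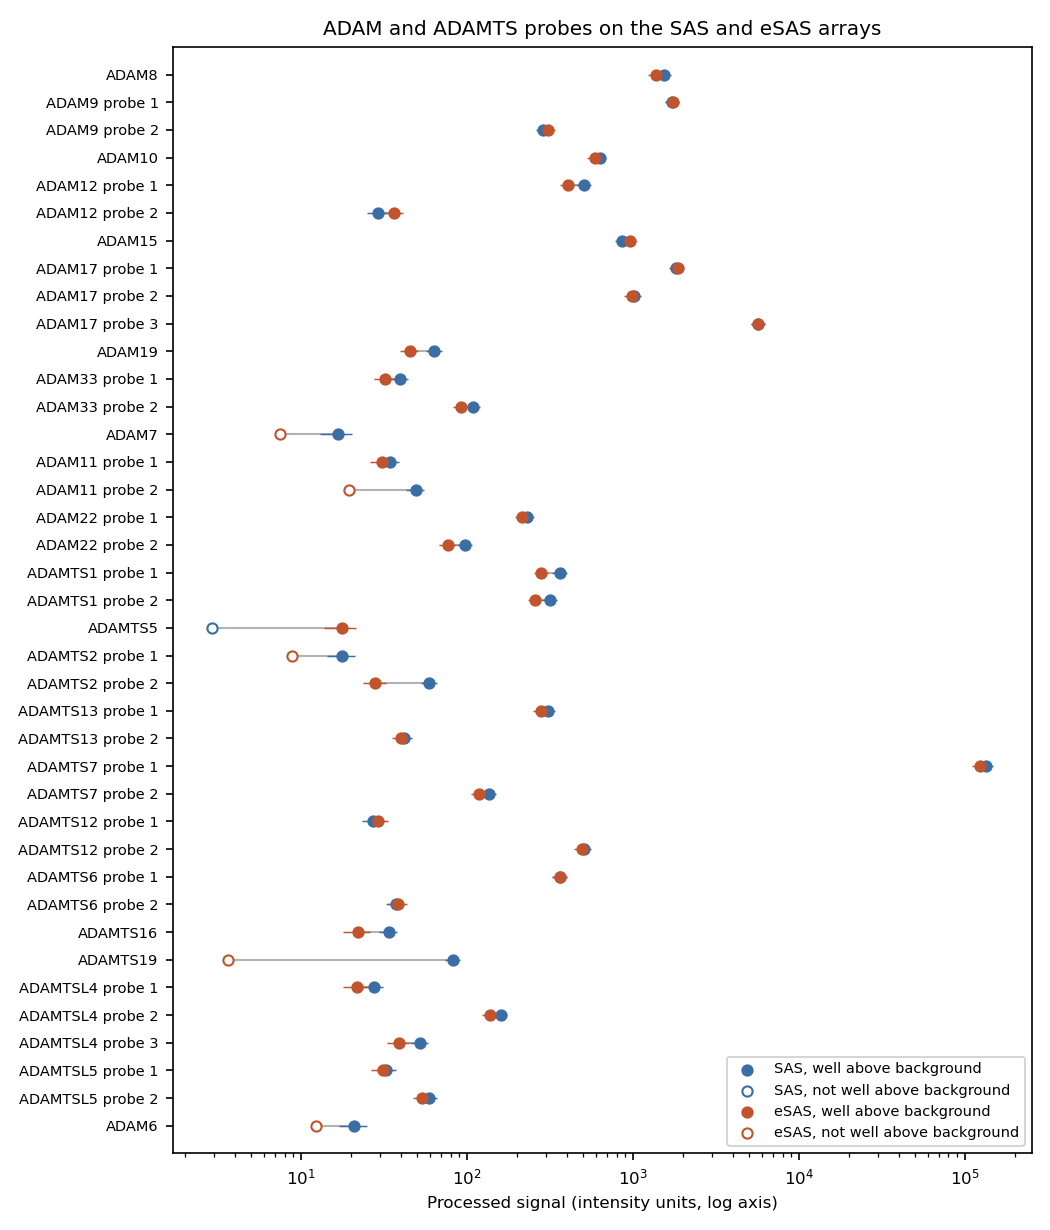
Processed signal of the 39 ADAM and ADAMTS probes well above background on at least 1 array, on a log axis, with SAS in blue and eSAS in orange. Filled points are well above background, with bars for the software's error, and open points are not. The pair of points is far apart only for a few dim probes, of which ADAMTS19 (82.8 and 3.67) is the widest.

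Over the 19 genes measured on both arrays the median log2 ratio was -0.10, with a range from -1.03 to 0.20, and the median over 19476 genes was -0.0012. A total of 13 were negative and 6 positive, where 50.3% of all genes were negative. Spots of one probe, of which 214 probes had several, differed in log2 ratio with an SD of 0.076, and 6 of the 19 genes lay within that spread and 14 within 3 SD, as did 6011 and 13251 of all 19476 genes. This spread is technical and leaves out variation between cultures. It was pooled over these probes without regard to their signal. The negative lean was larger at low signal. The 14 probes with a SAS signal below 100 had a median of -0.17, and 10 were negative, against 46.2% of all such probes. The 19 brighter probes had a median of -0.04, and 11 were negative, against 52.1% of all such probes. Over all probes the medians were 0.03 below 100 and -0.0088 above it, with SDs of 0.48 and 0.32. A ratio larger than the software's error was seen for 9 of 33 member probes, against 33.2% of all probes, and larger than 2 times that error for 1 of them, against 12.6%.

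**Figure D2:**
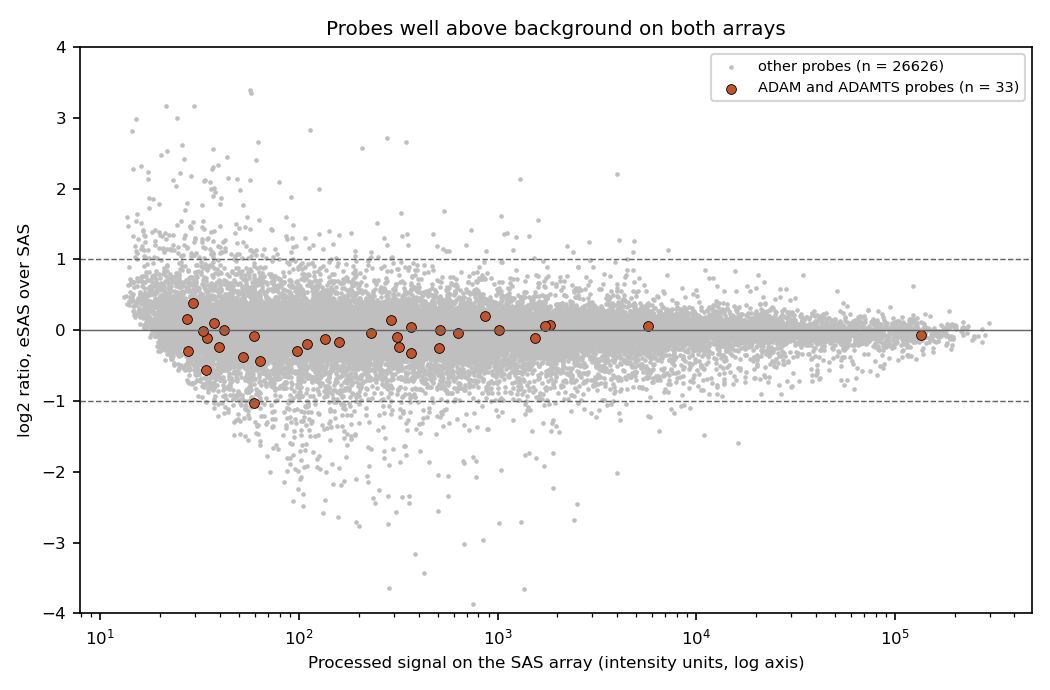
log2 ratio of eSAS over SAS against the processed signal on the SAS array (log axis) for 33 ADAM and ADAMTS probes, in orange, and 26626 other probes well above background on both arrays, in grey. The y axis stops at -4 and 4, which leaves out 3 other probes. Dashed lines mark 2-fold, and only the ADAMTS2 probe reaches them among the members, while the spread of all probes widens toward low signal.

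Among the catalytic ADAMs, those that act as sheddases of epithelial ligands were nearly equal in both populations. ADAM17 was measured by 3 probes, with signals of 1837, 1018 and 5706 in SAS cells and 1866, 984 and 5707 in eSAS cells. Its log2 ratio was 0.05 ± 0.04 (SD over 3 probes), which places it inside the spread between spots. ADAM10, which cuts Notch and E-cadherin, read 632 and 594, a log2 ratio of -0.03. ADAM9, a widely expressed sheddase, read 1733 and 1739 on one probe and 290 and 310 on the other, and its mean log2 ratio was 0.11. ADAM15, which carries an integrin-binding RGD motif, had a ratio of 0.20, with signals of 869 and 959, the highest gene mean among the 19 members measured on both arrays. ADAM8, a protease best known from leukocytes and invasive tumours, read 1547 and 1375, a log2 ratio of -0.12. These differences were at or below the software's errors of 0.204 to 0.205 for these probes, and that of ADAM15 was closest to its error.

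ADAM19 and ADAM12 differed more. ADAM19, a neuregulin-processing protease, read 63.9 and 45.4 on the probe that measured it, a log2 ratio of -0.44, while its other probe was not well above background on either array. ADAM12 is made as a long membrane-bound form and a short secreted form. The long-form probe read 507 and 408, a log2 ratio of -0.26, and the short-form probe read 29.1 and 36.5, a ratio of 0.38. The forms differed by 0.64 with a software error of 0.34, and the gene's mean ratio of 0.06 hides that the probes point opposite ways. The long-form probe lies in rows 450 to 510 of the array, where some spots read low on the SAS array. Of 10 spots of the ICAM1 probe, 8 read from 823 to 923 on the SAS array, while those in rows 464 and 502 read 565 and 123. Both of these low spots were marked by the software and left out, whereas the ADAM12 spot was not marked. A low SAS reading would raise a ratio, and the part it had in the ADAM12 values was not tested. ADAM33, known as an asthma susceptibility gene, read 110 and 92.3 on one probe and 39.4 and 32.1 on the other, a mean ratio of -0.22.

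Of the ADAMs without catalytic activity, ADAM22, a receptor for LGI proteins in neurons, read 231 and 216 on one probe and 97.6 and 76.8 on another, a mean ratio of -0.17, and a further probe was dim on both arrays. The ADAM11 probes disagreed. One read 34.3 and 30.7, a ratio of -0.11, and the other read 49.4 and 19.6, the latter not well above background and at least 2.43-fold lower. That second probe lies in row 461. Because the gene's ratio was taken from probes measured on both arrays, ADAM11 is not among the lower genes. ADAM7, an epididymal protein, read 16.7 and 7.52, and ADAM6, a pseudogene beside the immunoglobulin heavy chain genes, read 21 and 12.4. Their bounds were 1.06-fold and 1.33-fold lower, so that little can be said of their size.

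**Figure D3:**
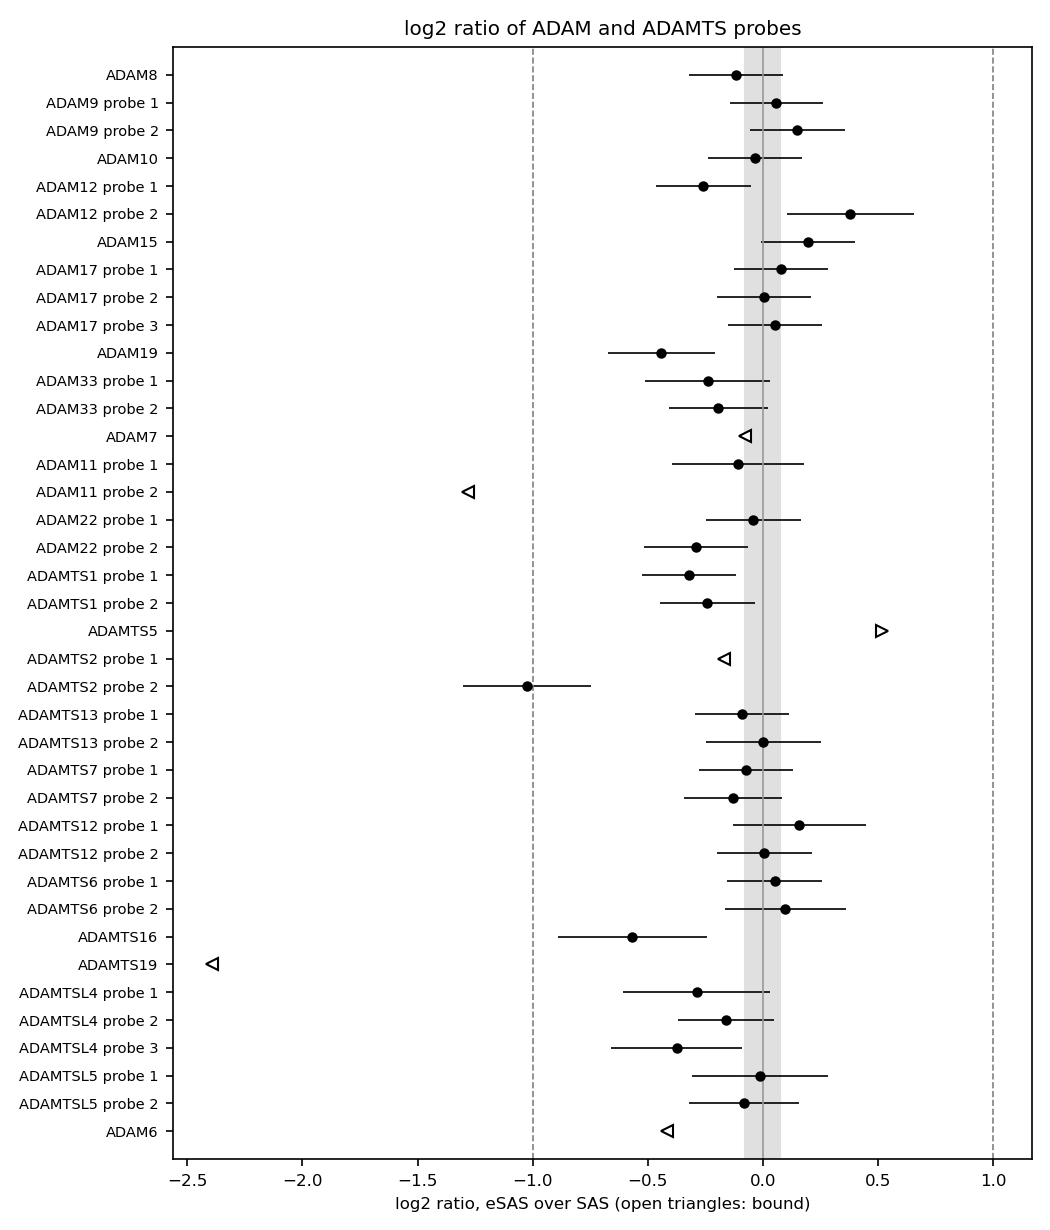
log2 ratio of eSAS over SAS for the 39 probes, with bars for the software's error. Open triangles are bounds that point away from 0, the grey band is 1 SD of replicate spots (0.076), and dashed lines mark 2-fold. The 3 ADAM17 probes lie within 0.08 of 0, and the ADAMTS19 probe, 1 ADAM11 probe and 1 ADAMTS2 probe lie at or beyond 2-fold lower.

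Among the proteoglycan-cleaving members, ADAMTS1 read 365 and 281 on one probe and 318 and 259 on the other, a mean ratio of -0.28. Both ADAMTS1 probes were lower in eSAS cells by more than 3 SD of replicate spots. Their ratios, -0.32 and -0.24, were however less than 2 times the software's errors of 0.20 and 0.21. ADAMTS5, the main aggrecanase of cartilage, read 2.93 in SAS cells, not well above background, and 17.7 in eSAS cells, at least 1.43-fold higher. ADAMTS5 lies 84.1 kb from ADAMTS1 on chromosome 21, and the neighbouring genes differed in sign, with ADAMTS5 close to background. ADAMTS4 and ADAMTS9, the other well-known aggrecanases, were dim on both arrays, with 2 probes each.

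The COMP-cleaving proteases had ratios near 0. ADAMTS7 read 134840 and 123417 on one probe and 135 and 119 on another, a mean ratio of -0.10, and its remaining probe was dim on both arrays. The ADAMTS7 probes thus disagreed widely in signal, and whether the brightest reads ADAMTS7 alone was not tested. ADAMTS12 read 512 and 495 on one probe and 27.2 and 29.2 on the other, a mean ratio of 0.08. ADAMTS13, which trims von Willebrand factor, read 310 and 281 on one probe and 41.9 and 40.4 on another, with a mean ratio of -0.04.

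ADAMTS6 read 365 and 364 on one probe and 37.4 and 38.6 on the other, a mean ratio of 0.07. ADAMTS16 read 33.9 and 22, a ratio of -0.57, and its other probe was dim on both arrays. Of the ADAMTS-like proteins, ADAMTSL4, a protein of fibrillin microfibrils, was lower on all 3 probes measured on both arrays, 27.6 and 21.8, 160 and 138, and 52.3 and 38.9, a mean ratio of -0.27 ± 0.11 (SD over 3 probes). ADAMTSL5 read 32.9 and 31.4 on one probe and 59.3 and 54.0 on another, a mean ratio of -0.05. ADAMTS16 and ADAMTSL4 were thus lower by more than the pooled SD of replicate spots, but less than 1.5-fold. That SD was not matched to the signal of these mostly dim probes, so it may understate their spread. The software's error was 0.32 for the ADAMTS16 ratio. The ADAMTSL4 ratios of -0.29 and -0.16 lay within their software errors of 0.32 and 0.21, and that of -0.37 was beyond its error of 0.28.

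Of the genes that carry ADAM10 and ADAM17 to the cell surface, all 9 were detected and 0 reached 2-fold, which says little beside the 1.98% and 2.13% of all genes called in each direction. The iRhom partners of ADAM17 were RHBDF1, at 664 and 607 with a ratio of -0.07, and RHBDF2, at 4033 and 4633 with a ratio of 0.25, the highest of these 9. FRMD8, which stabilises them, had a ratio of -0.03. The tetraspanins that escort ADAM10 had ratios of 0.13 (TSPAN5), -0.07 (TSPAN10), -0.06 (TSPAN14), -0.02 (TSPAN15), -0.05 (TSPAN17) and -0.13 (TSPAN33). The TSPAN33 value came from 3 probes that ranged from -0.58 to 0.11.

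Inhibitors and convertases held the only 2-fold differences among the partners. A2M, a broad protease trap that also binds ADAMTS proteases, read 172 and 3514 on its single probe, with 1 spot per array, 21.2-fold higher. TIMP3, the tissue inhibitor that acts on ADAM17 and on aggrecanases, read 3570 and 2514, a ratio of -0.45. Of the 8 inhibitors, all detected, 1 was higher and 0 lower at 2-fold, and the median ratio was -0.35. Of the 4 detected convertases 0 were higher and 1 lower. Over all detected genes 1.98% were higher and 2.13% lower, and in lists this short a single gene is more than either share. PCSK5, a furin-like convertase of prodomains, read 45.7 in SAS cells and 4.04, not well above background, in eSAS cells, at least 2.90-fold lower. The PCSK5 call was lost without background correction, where the bound was a log2 ratio of -0.57, when both arrays were required, and under every normexp fit. Furin itself had a ratio of -0.0079, and the other detected convertases, PCSK6 and PCSK7, had ratios of 0.32 and 0.03.

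Of 34 shed substrates, 28 were detected and 0 differed 2-fold (1.98% higher and 2.13% lower over all detected genes), with a median log2 ratio of 0.04. At 1.5-fold 3 were higher and 0 lower, where 4.61% and 6.31% of all detected genes were. ADAMTS substrates were detected in 8 of 17 cases, 5 of them on both arrays, and 0 reached 2-fold. COL1A1, BGN and LTBP1 were above background only on the SAS array. COL1A1, at 15.1 and 4.90, and BGN, at 15.2 and 10.1, were so close to the lower limit that their bounds were 0. These 2 genes could therefore not be called. Versican (VCAN), a proteoglycan cut by ADAMTS1, was the only one past 1.5-fold, with 103 in SAS cells and 52.1 in eSAS cells, a ratio of -0.93. Aggrecan, COMP and the fibrillar collagens COL1A2, COL2A1 and COL3A1 were not well above background on either array, so most matrix substrates could not be compared.

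**Figure D4:**
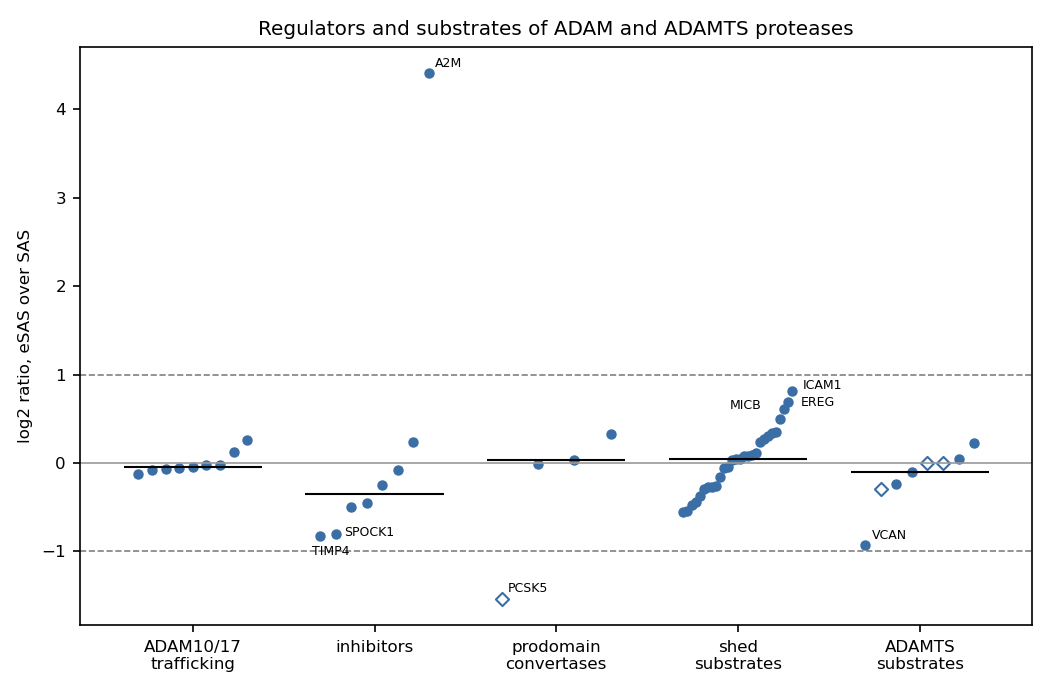
log2 ratio of eSAS over SAS for the regulators and substrates that could be measured, by list. Filled points are genes measured on both arrays, open diamonds are bounds, black lines are the medians of the filled points, dashed lines mark 2-fold, and genes at least 1.5-fold apart are named. A2M (4.41) and PCSK5 (a bound of -1.54) lie outside the dashed lines.

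On each array 43376 spots carried probes, of which 69.4% (SAS) and 67.5% (eSAS) were well above background and 0 were saturated. No member spot was marked by the software, 8 of the 80 probes lie in rows 450 to 510, and 5 of these were detected. The 10 squamous markers were all well above background on both arrays, and 7 of them had negative ratios, with a median of -0.43. KRT14, a basal keratin, was the lowest at -3.90, the mean of probes at -6.58 and -1.23, and KRT5, its partner, was at -0.63. The markers with positive ratios were KRT18 at 0.16, KRT8 at 0.12 and EPCAM at 0.04. The part of these markers in the members' negative lean was not tested. Of the fibroblast markers 3 of 7 were detected, and DCN, COL1A2, COL3A1 and PDGFRB were not. The detected ones were COL1A1, LUM and THY1, of which THY1 was bright, at 2667 and 2556. LUM, at 3.21 and 29.6, was above background only on the eSAS array, at least 2.40-fold higher. Its spot lies in row 461, within rows 450 to 510, and the part of a low SAS reading in its value was not tested. PTPRC and CD3E were not well above background on either array, and 2 of 5 leukocyte and 2 of 4 endothelial markers were detected. The detected leukocyte markers were CD68, at 717 and 752, and CD14, at 215 and 233. Whether RNA of other cells took part in any member's value was not tested.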

How the data were processed

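Cy3-labelled RNA from each population, SAS and eSAS, was hybridised to 1 of 2 one-colour Agilent arrays on 1 slide. The authors deposited the intensity output of Agilent Feature Extraction 10.7.3.1, per the labels, in which the processed signal was already corrected for background and spatial trends but not scaled between arrays. The deposited marks for spots well above background, saturated or non-uniform are whole-number flags and have no unit. Here the 75th percentile of each array was subtracted from the log2 processed signal, with percentiles taken over the non-control spots at 1242 (SAS) and 1196 (eSAS). Replicate spots were averaged, marked spots and control spots left out, and a probe was above background when over 50 percent of its spots were. A gene's log2 ratio is the mean over its probes above background on both arrays. Where it had none, the dim side was raised to at least the array's lowest signal above background (12.8 in SAS, 15.2 in eSAS), which gives a bound. Of 80 member probes, 65 were named through a RefSeq accession and 15 by their current symbol.

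The members and lists were chosen with earlier results of these data known. Named were all members, with values for those at least 1.5-fold apart or with several probes and for ADAM8, ADAM9, ADAM10, ADAM12, ADAM15, ADAM17, ADAM19, ADAMTS1, ADAMTS4, ADAMTS5 and ADAMTS9 whatever their fold. Named from the lists were genes at least 2-fold apart, TIMP3 and the trafficking genes. VCAN and other ADAMTS substrates, other convertases and cell type markers were named beyond this rule, after their values were seen. So were genes not above background and the substrates and inhibitors under other observations. Some single genes of the lists are not reported here, although the counts include them. Because each population has 1 array, no test was made and p-values are not given. The software's error includes a multiplicative error of 10 percent. Alternatives were no scaling, median centring, quantile normalization, normexp with an offset of 50 (mean and median pixels), no background correction, the authors' table of processed values, the filter and lower limit for dim probes, keeping marked spots, rows 450 to 510 left out and the brightest probe per gene. Python 3.11.15 and R 4.3.3 with limma 3.58.1 were used, and the counting was tested on simulated data.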

Additional observations from a re-analysis of the deposited data

How the results depend on the processing

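The counts of 2 members lower and 0 higher stayed when the arrays were left unscaled, quantile normalized or taken from the authors' table, when array rows 450 to 510 were left out, and when the brightest probe stood for each gene. The members' median log2 ratio, -0.10, was then -0.16 (unscaled and authors' table), -0.07 (quantile), -0.05 (rows left out) and -0.09 (brightest probe), each within 1 SD of replicate spots (0.076) of it. Centring on the median left 1 member lower. Normexp on mean pixels gave a median of 1.68, 13 members higher and 0 lower, with 19 regulators and substrates higher and 0 lower, and ADAMTS2 turned to 2.30. Normexp on median pixels gave 1.69, 13 and 0, then 19 and 0, and ADAMTS2 turned to 2.26. These fits moved the median of all genes to 0.68, though not every gene moved up, and ADAM17 went from 0.05 to -0.10 on mean pixels. Normexp fitted without 26 spots of marked local background, chosen after seeing the data, left 1 member lower and 0 regulators lower for both kinds of pixels. Without background correction the median was -0.0096, with 0 members and 0 regulators lower. Requiring both arrays left 1 member and 0 regulators lower. With no filter on dim probes the median was 0.0058 over 45 members, of which 3 were higher and 5 lower, and 2 regulators were higher and 2 lower. With no lower limit for dim probes 1 member was higher and 3 lower, with ADAM7 at -1.09, and 2 regulators were lower. With marked spots kept 2 regulators were higher. At 1.5-fold 4 regulators and substrates were higher and 4 lower, against 1 and 1 at 2-fold. Where a value above moved, the cause was not tested unless the setting itself removes or adds genes. No paired analysis was possible because each population has 1 array. For the same reason no array could be left out, and slide could not be fitted as a block because both arrays lie on 1 slide. Signals near the background, such as those of ADAMTS5, ADAM6 and ADAM7, give only bounds.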

Other observations

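Some probes annotated to the family did not carry its names and were left out of the counts above. They were a probe annotated to ADAMTS18, which read 3.49 in SAS cells and 16.3 in eSAS cells, one annotated to ADAMTS9, at 2.62 and 3.11, the ADAMDEC1 probe, at 3.25 and 7.88, and probes for ADAM4-like transcripts, at 2.97 and 4.16 and at 4.34 and 3.96. None was well above background on either array. Epiregulin (EREG), an EGF receptor ligand shed by ADAM17, read 2916 and 4525 on one probe and 1716 and 2673 on the other, a log2 ratio of 0.69 on each. ICAM1, an adhesion molecule shed by ADAM17, had a ratio of 0.81, and MICB, a ligand of the NKG2D receptor, a ratio of 0.61. HBEGF, a further EGF receptor ligand, had ratios of 0.49 and 0.50 on its probes. The other measured ligands of this receptor family had ratios of -0.54 (NRG1, at 992 and 656), -0.26 (TGFA), 0.04 (BTC) and 0.23 (AREG). Notch ligand JAG1 read 504 and 330, a ratio of -0.56. SPOCK1 and TIMP4, matrix protease inhibitors, had ratios of -0.80 and -0.83. Both these and the substrates differed by less than 2-fold, and no test was possible.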
